A study of Mus musculus with 4 samples.

Results

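The VEGF and angiopoietin ligands and their tyrosine kinase receptors are 10 genes (Vegfa, Vegfb, Vegfc, Vegfd, Flt1, Kdr, Flt4, Angpt1, Angpt2 and Tek), taken here with all 16 probe sets of the Affymetrix Mouse Expression Array 430A that the platform annotation gives to them alone, out of 12393 genes and 22626 probe sets. They were selected on the signals of these same arrays, chosen by the higher Vegfa in XX/Sry and the lower Vegfd in tubules. Every ratio below is therefore a description, and no test was made on these genes.

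Expression was measured on 4 arrays, with 1 array for each of 4 groups of adult mouse samples. W/Wv whole testis and W/Wv seminiferous tubules came from WB x B6 males bought from a supplier, which carry a pair of mutant alleles of the receptor gene Kit and have testes almost empty of germ cells. XX/Sry whole testis and XX/Sry seminiferous tubules came from transgenic males, made male by Sry although they carry the X chromosome in duplicate, and their testes lack germ cells too. The strain of the XX/Sry males, the promoter of their transgene, the ages beyond "adult", the number of animals behind an array and whether both preparations came from the same animals are not stated in any label. The comparisons were between 2 kinds of germ cell-poor testis used as hosts of spermatogenesis, and between tubules freed with collagenase (5 mg/ml, 37 °C, 40 min, with a 70 µm strainer) and the whole organ.

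VEGF ligands are secreted and bind receptors of the class that Flt1, Kdr and Flt4 encode, on blood and lymphatic endothelium, where they drive vessel growth and permeability. The angiopoietins bind the Tek receptor, also called Tie2, on the same cells: Angpt1 activates it and steadies vessels, while Angpt2 opposes or replaces that signal in a way that depends on the setting. In the testis the vessels run between the tubules, and the tubules themselves hold none; Leydig and Sertoli cells are known sources of VEGF.

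Vegfa and Vegfd were the 2 members that passed the 2-fold rule by genotype (below), so the stretches before their start sites are shown. These are the 250 bases upstream of the annotated start, from RefSeq on build GRCm38.p6, written 5′ to 3′ on the gene's strand, with each GC box (GGGCGG, or CCGCCC when on the opposite strand) in capitals. The Vegfa window is chr17:46032378-46032627 on the minus strand and the Vegfd window is chrX:164373272-164373521 on the plus strand.
Vegfa: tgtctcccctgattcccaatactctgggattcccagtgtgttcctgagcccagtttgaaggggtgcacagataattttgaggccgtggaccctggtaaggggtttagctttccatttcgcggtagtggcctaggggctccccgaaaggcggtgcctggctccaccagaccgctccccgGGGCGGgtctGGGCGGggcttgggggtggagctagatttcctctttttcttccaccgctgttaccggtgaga
Vegfd: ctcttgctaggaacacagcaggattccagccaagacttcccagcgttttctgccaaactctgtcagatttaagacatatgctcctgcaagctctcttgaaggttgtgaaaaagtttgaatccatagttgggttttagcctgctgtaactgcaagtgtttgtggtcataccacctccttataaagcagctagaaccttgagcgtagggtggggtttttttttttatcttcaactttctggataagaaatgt

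The Vegfa window held 2 GC boxes, which begin 72 and 62 bases before the start site, and had a GC content of 59.2%. The Vegfd window held 0 GC boxes and had a GC content of 42.4%. A GC box on either strand occurred in 32.7% of the 32851 RefSeq windows of that length and in 7 of these genes' 9 windows. Tek and Vegfd had none. Vegfa has a further annotated start inside the gene. The Kdr and Flt1 windows also lie within the annotated extent of their genes, and the Tek window partly overlaps its gene. The core letters bound by hypoxia-inducible factors, ACGTG on either strand, stood in 16.6% of all windows and in 1 of these 9, that of the internal Vegfa start. These are matches of letters only. Angpt1 and Angpt2 have no entry.

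Signals are listed in a fixed order: whole testis and then tubules, with W/Wv before XX/Sry in each. Values are MAS5 signals, which are linear array intensities. A background bound was set for each array at the highest signal of 27 bacterial control probe sets that have no mouse target: 76.3 and 63.9 in the whole organ and 46.1 and 61.0 in tubules (W/Wv first). Where the dimmer of a pair lay under its bound, the fold is given as "at least", against the higher bound of the pair. Of the 16 member probe sets, 7 were above these bounds on all 4 arrays, 8 on 1 to 3 arrays and 1 on none. Counted by gene, with the brightest probe set standing for it, 5 were above the bound everywhere, 4 on some arrays, and Angpt1 on none; 1 gene, Vegfd, had a mean signal at or above that of the median gene. Signals of different probe sets cannot be ranked against each other, so each gene is compared only across arrays. With 1 array per group there is no spread between replicates, and the number of arrays limits all precision.

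The labels were checked first. The Y-linked gene Eif2s3y had 794.7, 9.5, 580.3 and 28.2, and Xist, which is made from an inactive X chromosome, had 130.6, 3099, 76.7 and 1002. Kit, which W/Wv mice carry in mutant form, had 256.1, 892.5, 139.3 and 569.4. Of 10 Sertoli cell markers, 9 or 10 were above the bound on each array. The summed signal of 10 germ cell markers was 4830, 1047, 902.8 and 1018, so the W/Wv whole testis held the most germ cell signal; its part in the whole testis ratios was not tested. On the array of W/Wv tubules, 18 spiked hybridisation controls deviated by 0.46 (log2) from their mean over the arrays, against -0.18 to -0.09 elsewhere; scaling on them is given as another setting.

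**Figure D1:**
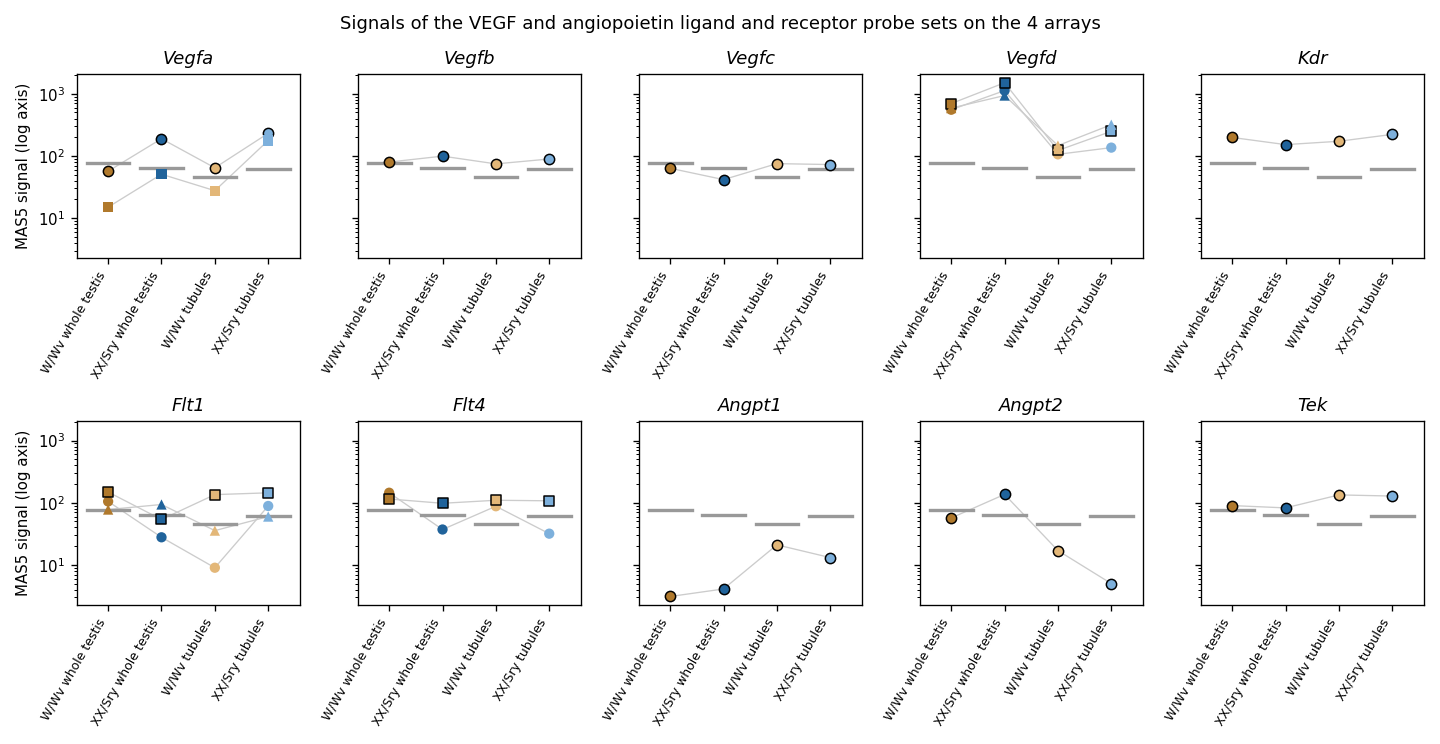
MAS5 signal (log axis) of each probe set of the 10 genes on the 4 arrays; each marker shape is a probe set, the black outline marks the brightest one of a gene, thin lines only join its values, and the grey bars are the background bound of each array. Vegfa was higher on both XX/Sry arrays, and all 3 Vegfd probe sets were lower on both tubule arrays.

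Between the genotypes, Vegfa and Vegfd were the members that stood 2-fold or more higher in XX/Sry in both preparations, the rule that the study's design text sets; 0 of the 10 were lower and 8 were neither. Over all 12393 genes, 1.98% were called higher and 3.22% lower by that rule. Since the members were picked with this comparison in view, nothing is read from 2 of 10 against that share. The log2 ratios of the 10 genes ran from -1.47 (Flt1) to 1.74 (Vegfa) in whole testis, with a median of 0.10, and from -1.77 (Angpt2) to 1.85 (Vegfa) in tubules, with a median of 0.03. These extremes use deposited signals: both Angpt2 tubule signals, the XX/Sry signal of Flt1 and the W/Wv signal of Vegfa in whole testis were under their bounds, and the Angpt2 ratio turned to 0.40 with signals raised to the bound. The median over all genes was -0.10 in whole testis and 0.00 in tubules.

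Vegfa, on chromosome 17, encodes the main growth factor of blood vessel endothelium. Its brighter probe set, 1420909_at, had signals of 56.8 and 189.1 in the whole organ and 64.4 and 231.5 in tubules (W/Wv first). Both XX/Sry arrays were above both W/Wv arrays, and the W/Wv whole testis signal was under its bound. Vegfa was at least 2.48-fold higher in XX/Sry whole testis (3.33-fold by the deposited signals, 1.74 on the log2 scale) and 3.59-fold higher in XX/Sry tubules (1.85). In whole tissue, fewer cells of a type and less RNA per cell cannot be told apart, here or in any ratio that follows.

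The other Vegfa probe set, 1451959_a_at, which by its suffix matches several transcripts of 1 gene, had 15.0, 50.8, 27.6 and 177.4 on the same arrays in that order. It was above the bound on the XX/Sry tubules array alone, where it was at least 2.91-fold higher than in W/Wv tubules; in whole testis both signals were under their bounds and no fold is given. The XX/Sry signal was thus the higher of the pair in both probe sets and both preparations. Among the 3098 genes in the same signal quartile, the middle 95% of log2 ratios ran from -1.95 to 1.59 in whole testis and from -1.72 to 1.93 in tubules, which shows how widely ratios of single arrays spread at such signals. In that quartile 7.52% of genes were 2-fold higher in whole testis and 11.1% in tubules. Vegfa was chosen by its genotype ratios, so nothing is read from their place in this spread. The direction held under each other scaling, offset and choice of probe set that was run, with log2 ratios from 1.16 to 2.08 in whole testis and from 1.30 to 2.47 in tubules.

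Vegfd, on the X chromosome, encodes a ligand of Flt4 and, in humans, of KDR, known for lymphatic vessel growth. Its brightest probe set, 1438954_x_at, had signals of 696.1 and 1505.6 in the whole organ and 122.6 and 248.7 in tubules (W/Wv first). It was 2.16-fold higher in XX/Sry whole testis (log2 ratio 1.11) and 2.03-fold higher in XX/Sry tubules (1.02). The suffix _x_ marks a probe set whose probes may also bind other transcripts, and the other Vegfd probe sets do not carry it.

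Probe set 1438953_at had 554.2, 1125.6, 106.1 and 136.1 on the same arrays, 2.03-fold higher in XX/Sry whole testis and 1.28-fold higher in tubules. Probe set 1449528_at had 588.9, 936.8, 146.8 and 318.2, 1.59-fold and 2.17-fold higher. All 3 probe sets had the higher signal in XX/Sry in both preparations, but the brightest alone reached 2-fold in both. The genotype call of Vegfd was lost with the mean of its probe sets (log2 ratios of 0.93 and 0.83), and in tubules after quantile normalisation (0.94) or with 50 added to all signals (0.79). For genes in its signal quartile, the middle 95% of genotype ratios (log2) ran from -1.12 to 1.18 in whole testis and from -1.10 to 1.29 in tubules.

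Vegfb and Vegfc, the remaining VEGF ligands measured, stayed under 2-fold. Vegfb, on chromosome 19, encodes a ligand of Flt1, and had 79.7, 99.3, 74.5 and 89.3 in W/Wv whole testis, XX/Sry whole testis, W/Wv tubules and XX/Sry tubules. Its log2 genotype ratios were 0.32 and 0.26, with no change of sign under any setting run. Vegfc, on chromosome 8, encodes the main growth factor of lymphatic endothelium. It had 63.3, 41.6, 75.2 and 72.7, under the bound in both whole testes and 1.03-fold lower in XX/Sry tubules, a direction that turned when arrays were scaled on the spike controls.

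By its brightest probe set, none of the 4 receptor genes was 2-fold higher in XX/Sry in either preparation. Kdr, on chromosome 5, encodes VEGFR2, the main signalling receptor for Vegfa, and had 198.3, 152.1, 172.2 and 222.3, all above the bound. Its XX/Sry signal was the lower by 1.30-fold in the whole organ and the higher by 1.29-fold in tubules, so the preparations differed in direction at a size under the threshold. In the RefSeq annotation Kdr is the next protein-coding gene after Kit on chromosome 5, and Kit was 3.48-fold (whole testis) and 4.09-fold (tubules) higher in XX/Sry.

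Flt1, also on chromosome 5, encodes VEGFR1, which binds Vegfa tightly and also exists as a soluble decoy. Its brightest probe set, 1451756_at, had 148.7 and 53.8 in the whole organ and 135.1 and 144.4 in tubules (W/Wv first). The XX/Sry whole testis array stood apart as the one under its bound, which made Flt1 at least 1.95-fold lower there and 1.07-fold higher in tubules. Probe set 1419300_at had 104.9, 27.8, 9.0 and 88.7, and probe set 1454037_a_at had 77.7, 93.7, 35.6 and 59.9. The 3 probe sets disagreed on the direction in whole testis: 2 were lower in XX/Sry and 1454037_a_at was 1.21-fold higher. No single direction can be given for Flt1.

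Flt4, on chromosome 11, encodes VEGFR3, the receptor of Vegfc and Vegfd. Probe set 1444052_at had 114.9, 98.0, 109.6 and 107.4, within 1.17-fold across genotype in whole testis and within 1.02-fold in tubules. Probe set 1421442_at had 144.9, 37.1, 87.8 and 31.8, above the bound in both W/Wv samples and under it in both XX/Sry samples, a drop of at least 1.90-fold in the whole organ and at least 1.44-fold in tubules. The probe sets thus differed in size by genotype. As a measure of such disagreement, the 2 brightest probe sets of a gene differed by a median of 0.63 (log2) in whole testis and 0.57 in tubules over the 1262 genes whose dimmer one lay in the second signal quartile, and by 1.40 and 1.35 over the 1250 genes in the lowest quartile.

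The angiopoietin receptor gene Tek, on chromosome 4, had 90.0, 82.6, 133.7 and 128.1, all above the bound. Its log2 genotype ratios were -0.12 and -0.06, of which the first turned positive after quantile normalisation and the second after scaling on the spike controls. Angpt2, on chromosome 8, had 56.9, 136.2, 17.0 and 5.0, above the bound in XX/Sry whole testis alone, where it was at least 1.79-fold higher than in W/Wv. In tubules both Angpt2 signals were under their bounds and no fold is given. Angpt1, on chromosome 15, had 3.1, 4.1, 21.0 and 13.1, not above the bound on any of the 4 arrays, so no fold is given for it.

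**Figure D2:**
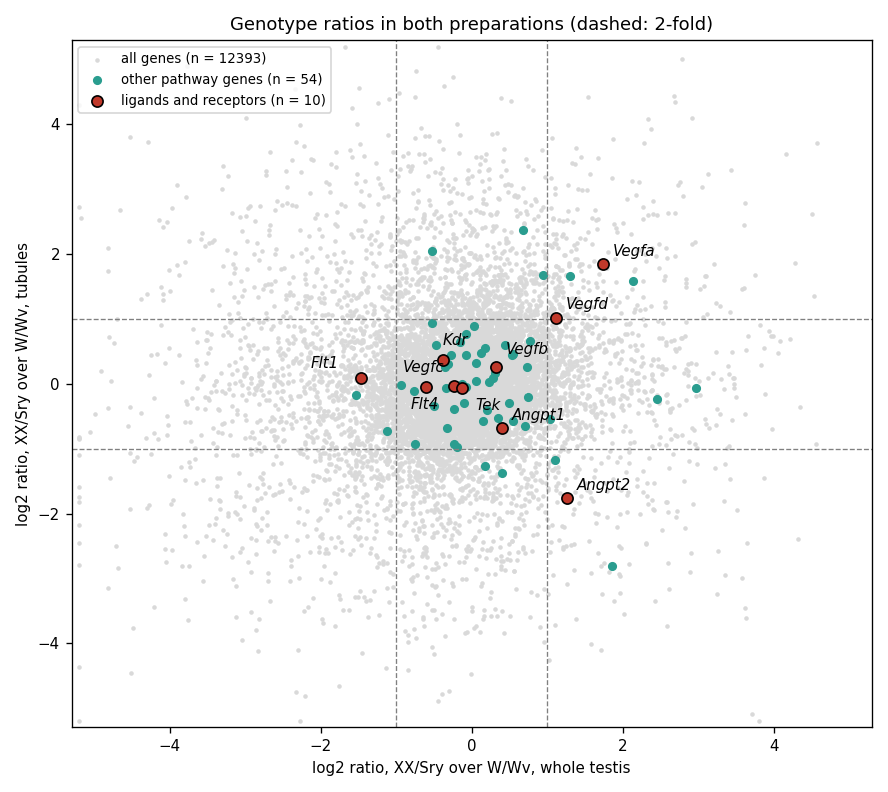
Log2 ratio of XX/Sry over W/Wv in whole testis (horizontal) and in tubules (vertical) for all 12393 genes (grey, with values outside the axes drawn at the edge), 54 other pathway genes (green) and the 10 ligand and receptor genes (red), 1 array per group; dashed lines mark 2-fold. Vegfa and Vegfd are the 2 red points past 2-fold in both preparations; Angpt1 and the tubule value of Angpt2 rest on signals under the background bound.

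Between the preparations, Vegfd, which was chosen by this contrast, was lower in tubules of both genotypes, with all signals above background. By the deposited signals 2 of the 10 genes were 2-fold or more lower in tubules in both genotypes (Vegfd and Angpt2), 1 was higher (Angpt1) and 7 were neither, against 5.74% lower and 1.32% higher over all genes; here too the contrast was known when the members were picked. The Angpt1 call rests wholly on signals under the bound and is not used, and that of Angpt2 has signals under the bound on both W/Wv arrays. The median log2 ratio of tubules over whole testis was -0.08 in W/Wv and 0.42 in XX/Sry for the 10 genes, and -0.15 and -0.02 for all genes.

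Vegfd was 5.68-fold lower in W/Wv tubules and 6.05-fold lower in XX/Sry tubules by its brightest probe set. Probe set 1438953_at was 5.22-fold and 8.27-fold lower, and probe set 1449528_at 4.01-fold and 2.94-fold lower. Within each probe set both tubule signals were under both whole testis signals. Vegfd was chosen by its lower tubule signal, so nothing is read from that order. The log2 ratios of the brightest probe set were -2.51 and -2.60; these values chose the gene, so they are not set against those of other genes. The direction and the 2-fold call held in every setting run, with log2 ratios from -3.05 to -2.11 in W/Wv and from -2.61 to -2.38 in XX/Sry.

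Leydig cell and macrophage markers were, like Vegfd, lower in tubules. The summed signal of 7 Leydig cell markers was 50620 and 71710 in the whole organ and 12330 and 27120 in tubules (W/Wv first), so that it was 4.11-fold and 2.64-fold lower in tubules and 1.42-fold and 2.20-fold higher in XX/Sry. Cyp11a1, the first enzyme of steroid synthesis, was 5.08-fold and 5.87-fold lower in tubules. All 7 were above the bound on every array, and 6 were 2-fold lower in tubules in both genotypes, beside 5.74% of all genes. For the whole organ, 6 of the 7 had the larger signal in XX/Sry, while Fdx1 was 1.17-fold lower. For tubules, all 7 had the larger signal in XX/Sry. The summed signal of 10 macrophage markers was 12960, 16960, 5171 and 3947, with 8 of the 10 lower in tubules by the same rule. Between genotypes this macrophage sum differed by 1.31-fold in each preparation. XX/Sry had the larger sum for the whole organ, and W/Wv had the larger one for tubules. The part of either cell type in the Vegfd signal was not tested.

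**Figure D3:**
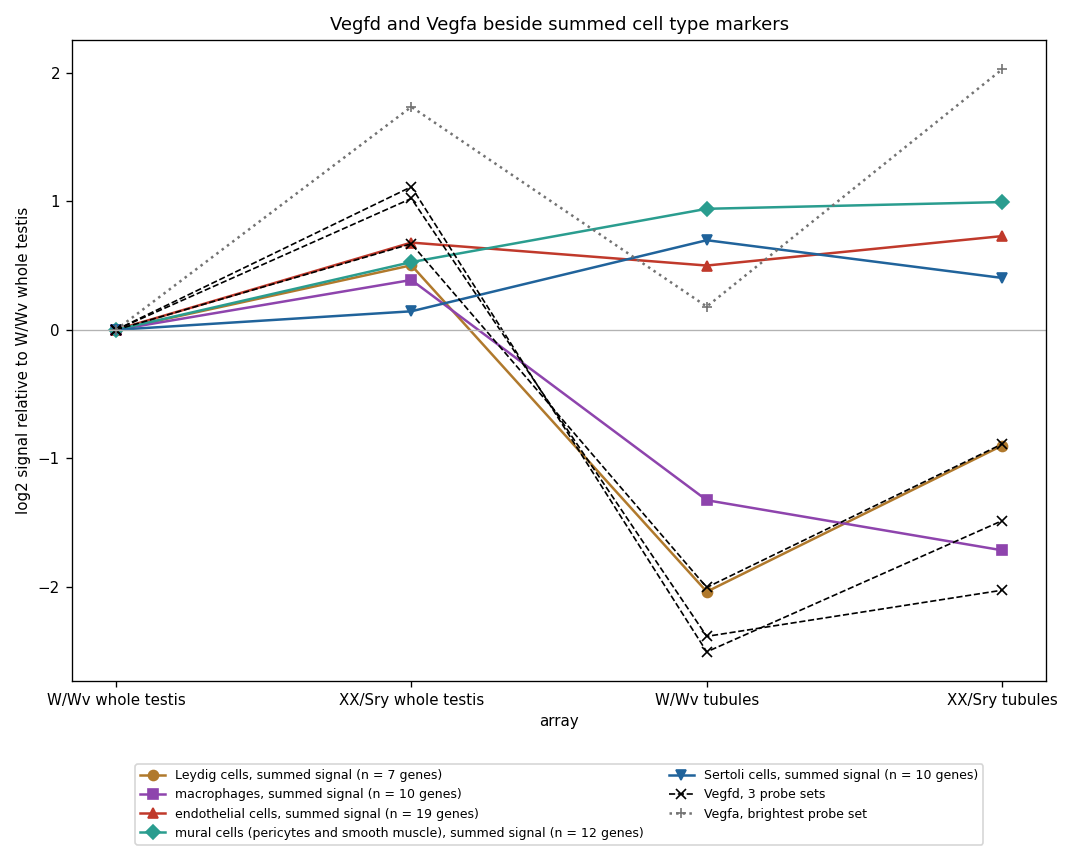
Log2 signal on each array relative to W/Wv whole testis for the 3 Vegfd probe sets (black crosses), the brightest Vegfa probe set (grey plus signs) and the summed signal of 5 marker lists (coloured); lines only join values of 1 item, and each array is 1 sample. Vegfd and the Leydig cell sum are lower on both tubule arrays and higher in XX/Sry within each preparation, while Vegfa is higher in XX/Sry in both preparations and not lower in tubules by the deposited signals (in W/Wv this turns with scaling on the spike controls or signals raised to the bound).

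Vegfa did not share the drop of Vegfd in isolated tubules; its log2 ratios were 0.18 in W/Wv, which turned to -0.37 with scaling on the spike controls and to -0.24 with signals raised to the bound, and 0.29 in XX/Sry. Its brightest probe set was 1.22-fold higher in XX/Sry tubules than in XX/Sry whole testis, and in W/Wv no fold is given, because the whole testis signal was under its bound and the tubule signal was not above that bound. The other Vegfa probe set was at least 2.78-fold higher in XX/Sry tubules than in whole testis. Vegfb was 1.07-fold lower in W/Wv tubules and 1.11-fold lower in XX/Sry tubules, and both directions turned after quantile normalisation (the former also after median centring). Vegfc was at least 1.14-fold higher in XX/Sry tubules than in whole testis and has no fold in W/Wv.

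Among the receptors, Tek had the same direction in both genotypes: it was 1.49-fold higher in W/Wv tubules and 1.55-fold higher in XX/Sry tubules, under the threshold. Its W/Wv log2 ratio fell from 0.57 to 0.02 with scaling on the spike controls, so the W/Wv difference depends on the scaling. In XX/Sry the Tek ratio ran from 0.43 to 0.75 over the settings run. Kdr was 1.15-fold lower in W/Wv tubules, which turned to 0.02 on the log2 scale after median centring, and 1.46-fold higher in XX/Sry tubules. Flt1 by its brightest probe set was 1.10-fold lower in W/Wv tubules, a direction that turned under median centring and quantile normalisation, and at least 2.26-fold higher in XX/Sry tubules. Flt4 by its brightest probe set was 1.05-fold lower in W/Wv tubules and 1.10-fold higher in XX/Sry tubules, and each direction turned under some setting (median centring or quantile normalisation for the former, the mean of probe sets for the latter). Angpt2 dropped by at least 2.13-fold from whole testis to tubules in XX/Sry, and has no fold in W/Wv.

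Markers of endothelium, on which these receptors act, did not fall with the Leydig and macrophage markers. The summed signal of 19 endothelial markers was 2772 and 4438 in the whole organ and 3921 and 4596 in tubules (W/Wv first), with 12 to 16 of the 19 above the bound on each array and Erg and Ushbp1 under it on all. It was 1.60-fold higher in XX/Sry whole testis and 1.17-fold higher in XX/Sry tubules, beside the lower Kdr signal in XX/Sry whole testis. By preparation the sum was 1.41-fold (W/Wv) and 1.04-fold (XX/Sry) higher in tubules. With scaling on the spike controls the list's W/Wv median log2 ratio turned from 0.36 to -0.19. The 2-fold rule called 2 of the 19 higher in tubules, Pecam1 and Vwf, and 0 lower, beside 1.32% and 5.74% of all genes. Both Pecam1 whole testis signals and that of Vwf in W/Wv were under their bounds. Cldn5, a tight junction gene of vessels, had 229.3, 565.2, 562.4 and 721.7, and Cd34, a surface sialomucin, 427.6, 824.3, 418.4 and 503.2, while Robo4, an endothelial guidance receptor, had 468.2, 229.9, 518.3 and 420.4. The genotype rule called 2 of the 19 higher, Emcn and Ushbp1, beside 1.98% of all genes, and Ushbp1 was under the bound on all arrays; Emcn, a sialomucin of small vessels and veins, exceeded W/Wv by 2.56-fold in whole testis and 2.29-fold in tubules. The part of vessel content in the receptor signals was not tested.

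Mural cell markers, for pericytes and smooth muscle, summed to 7168, 10330, 13770 and 14280 over 12 genes, 1.92-fold and 1.38-fold higher in tubules. Acta2, the smooth muscle actin also made by the muscle-like cells around tubules, had 5126.7, 7449.1, 9822.9 and 10565.8 of these sums. By the 2-fold rule 0 of the 12 were higher and 0 lower in tubules, beside 1.32% and 5.74% of all genes. The tubule signal was the higher for 9 of the 12 in W/Wv and 8 in XX/Sry. It was the lower in both genotypes for Pdgfrb (1.65-fold and 1.03-fold), Cspg4 (1.42-fold and at least 1.77-fold) and Kcnj8 (1.04-fold and at least 1.27-fold). Lymphatic markers, 4 measured, summed to 1112, 913.3, 1031 and 915.9, and 2 to 4 of them were above the bound. Of these, Lyve1 was above the bound in the tubules of both genotypes alone, and Prox1 in W/Wv tubules alone, while Pdpn and Reln, which are also made outside lymphatic vessels, were above it on all 4 arrays.

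**Figure D4:**
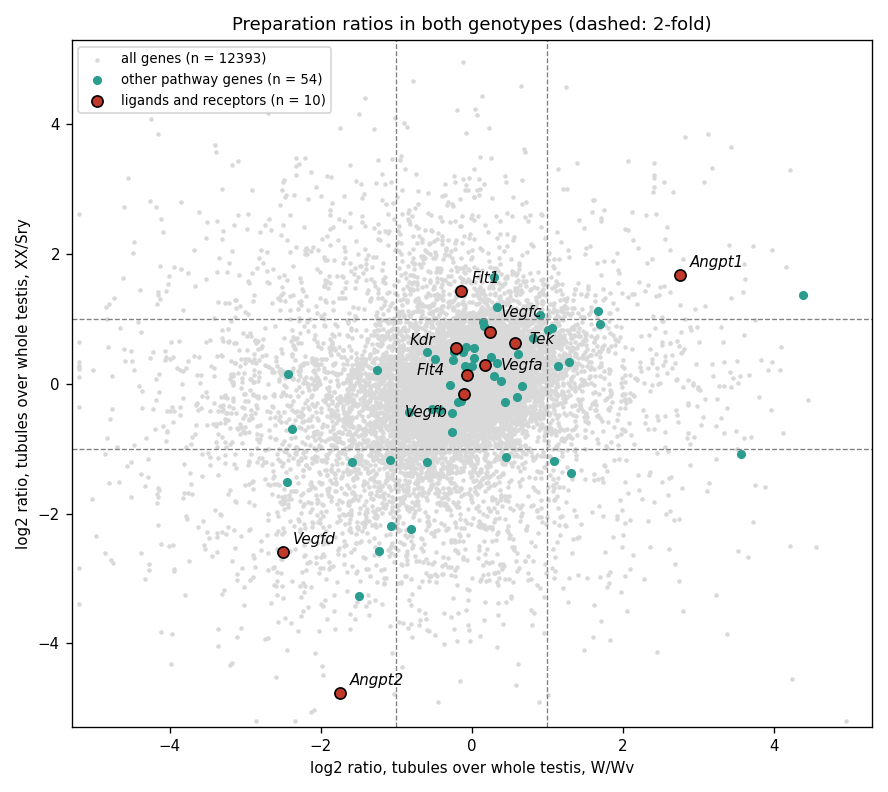
Log2 ratio of tubules over whole testis in W/Wv (horizontal) and in XX/Sry (vertical) for all 12393 genes (grey, with values outside the axes drawn at the edge), 54 other pathway genes (green) and the 10 ligand and receptor genes (red), 1 array per group; dashed lines mark 2-fold. Vegfd stands past 2-fold lower in both genotypes, while Angpt1 and the W/Wv value of Angpt2 rest on signals under the background bound.

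Other genes of the pathway were taken as a list of 58, of which 54 were measured. By genotype 2 were higher (Sema3f and Plxnd1), 0 lower and 52 neither, beside 1.98% and 3.22% of all genes; the list's median log2 ratios were 0.13 in whole testis and -0.01 in tubules. Between preparations 2 were higher in tubules (Sema3f and Plxna1), 6 lower (Nrp1, Egln3, Pik3r1, Nfatc1, Apln and Serpinf1) and 46 neither, beside 1.32% and 5.74% of all genes, and the medians were 0.02 (W/Wv) and 0.18 (XX/Sry). The calls of Sema3f and Egln3 each include a pair of signals that were both under their bounds. An additive fit of genotype and preparation with limma, which has 1 residual degree of freedom and takes disagreement between the pairs as error, called 0 of the 54 by genotype at an adjusted p under 0.05 (5 at an unadjusted p under 0.05). It called 3 of the 54 by preparation, with 15 at an unadjusted p under 0.05. Over all probe sets 8.74% by genotype and 13.9% by preparation had an unadjusted p under 0.05. Over all 22626 probe sets the fit called 0.11% higher and 0.0398% lower by genotype, and 0.239% higher and 0.977% lower in tubules.

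Of the co-receptors, Nrp1, which binds Vegfa and presents it to Kdr, had 894.9 and 1307.3 in the whole organ and 422.7 and 580.6 in tubules (W/Wv first). It was 2.12-fold and 2.25-fold lower in tubules, with an adjusted p of 0.0724 in the limma fit, and 1.46-fold and 1.37-fold higher in XX/Sry. Nrp2, the partner of Flt4, had 179.3, 163.5, 124.7 and 124.8, 1.44-fold and 1.31-fold lower in tubules. Tie1, the orphan relative of Tek, was under the bound on all 4 arrays, and Pgf, a further ligand of Flt1, was above it in W/Wv tubules alone (46.2 against a bound of 46.1).

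Plxnd1, which encodes a semaphorin receptor of endothelial cells, had 260.7, 640.8, 246.2 and 777.9 and was the one pathway gene past the genotype rule with signals above the bound on all arrays. It was 2.46-fold higher in XX/Sry whole testis and 3.16-fold higher in XX/Sry tubules, with an adjusted p of 0.109 in the limma fit. Both XX/Sry arrays were above both W/Wv arrays. When all 4 log2 signals were centred on the gene's mean, Plxnd1 was also the third closest in pattern to Vegfa over the 4 arrays among genes at or above the median signal, at a root mean square distance of 0.18. Closer were Stom, with 276.5, 812.2, 314.5 and 1102.9 (distance 0.08), and Akr1c12, with 243.0, 625.6, 256.2 and 972.8 (distance 0.15). These distances use the Vegfa signal in W/Wv whole testis, which was under its bound, and the pattern that chose Vegfa, so they are a description of deposited signals only. Sema3f, a semaphorin that binds Nrp2, was above the bound in XX/Sry tubules alone (117.2), at least 1.92-fold higher than in W/Wv tubules. Plxna1, a co-receptor of semaphorins, had 8.3, 64.9, 174.5 and 167.2, at least 2.29-fold and 2.58-fold higher in tubules.

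Apelin, which Tek signalling is known to induce in vessels, and its receptor had different patterns over the arrays. Apln had 743.2, 841.8, 248.6 and 364.3, 2.99-fold and 2.31-fold lower in tubules, with an adjusted p of 0.0495 in the limma fit. Aplnr had 101.3, 195.4, 113.5 and 362.0, 1.93-fold higher in XX/Sry whole testis and 3.19-fold higher in XX/Sry tubules, just short of the rule in the former. Serpinf1, the vessel growth inhibitor PEDF, had 1292.1, 1894.5, 618.5 and 415.3, 2.09-fold and 4.56-fold lower in tubules, with an adjusted p of 0.0288. Timp3, an inhibitor that blocks VEGF binding to Kdr, had 900.1, 1224.5, 1680.1 and 2556.4, 1.87-fold and 2.09-fold higher in tubules, with an adjusted p of 0.0886.

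Of the oxygen-sensing regulators, which set the level of Vegfa in many tissues, Hif1a, Epas1 and Vhl were lower in XX/Sry by the deposited signals, at less than 2-fold, while Arnt, the partner subunit, was not. Hif1a, the inducible subunit that activates Vegfa, had 1907.2, 1126.0, 1807.5 and 1666.2, 1.69-fold and 1.08-fold lower in XX/Sry samples. Epas1, which encodes the related subunit of endothelium, had 158.2, 134.0, 241.9 and 184.2, 1.18-fold and 1.31-fold lower, and Vhl, which marks both subunits for breakdown, had 230.2, 183.6, 301.0 and 188.7, 1.25-fold and 1.60-fold lower. Arnt had 96.3, 98.0, 69.0 and 128.2, 1.02-fold and 1.86-fold higher. Hif3a was 1.27-fold and 1.05-fold lower in XX/Sry. The hydroxylase genes Egln1 (1.15-fold and 1.96-fold) and Egln2 (1.18-fold and 1.91-fold) were also lower in XX/Sry. Egln3 was at least 1.02-fold higher in XX/Sry whole testis and has no fold by genotype in tubules. Scaling on the spike controls would add 0.62 (log2) to the median tubule ratio, more than the Hif1a, Epas1 and Hif3a differences there. Egln1, the main oxygen-sensing hydroxylase, had 1267.6, 1106.0, 4103.8 and 2088.7, 3.24-fold and 1.89-fold higher in tubules, with an adjusted p of 0.0444 in the limma fit.

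Of 22 measured genes that respond to hypoxia, 0 passed the genotype rule in either direction, beside 1.98% and 3.22% of all genes, and the median log2 ratio was 0.02 for whole testis and 0.03 for tubules. By the smaller of both ratios the closest was Hmox1, the haem oxygenase that oxidative stress and haem also induce, with 269.7, 769.6, 182.7 and 333.9, 2.85-fold and 1.83-fold higher in XX/Sry. Counted by single preparation, 1 of the 22 was 2-fold higher in XX/Sry whole testis and 1 was lower. In tubules 5 were 2-fold higher in XX/Sry and 0 lower. Of these 5, Pgk1 (2.3-fold), Tpi1 (2.69-fold) and Ero1a (2.1-fold) had signals above the bound on all 4 arrays. For Adm and Car9 both tubule signals were under their bounds. In whole testis Pgk1 and Ero1a were lower in XX/Sry, and Tpi1 was 1.21-fold higher. Any link to Vegfa was not tested. Slc2a1, the glucose transporter GLUT1, had 850.9, 689.5, 1360.4 and 1480.3, 1.60-fold and 2.15-fold higher in tubules. Pdk1, which keeps pyruvate out of mitochondria, had 868.1, 987.4, 1796.2 and 1841.6, 2.07-fold and 1.87-fold higher in tubules. Slc2a1 and Pdk1 had the higher signals in tubules of both genotypes, but the list was evenly divided. Within each genotype 11 of the 22 genes were higher in tubules, with median log2 ratios of -0.02 (W/Wv) and 0.13 (XX/Sry). Scaling on the spike controls moved the W/Wv median to -0.57. Stc2, a secreted glycoprotein, had 269.5, 114.9, 79.8 and 55.5, lower in XX/Sry by 2.35-fold and at least 1.31-fold. Vldlr, a lipoprotein receptor, was 1.26-fold and 1.27-fold lower in XX/Sry, and Aldoa, a glycolytic aldolase, 1.26-fold and 1.64-fold lower. Tpi1, a further glycolytic enzyme, was 3.69-fold and 1.66-fold lower in tubules. By preparation 2 of the 22, Car9 and Stc2, were lower in both genotypes and 20 were neither, beside 5.74% of all genes lower. The Car9 call includes W/Wv signals that were both under their bounds (75.5 and 12.3).

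Ranked by the smaller of both genotype ratios, among genes with the same direction in both preparations and the brighter signal of each pair above its bound, the pathway genes after Plxnd1 and Aplnr were Prkca, Tnip2 and Notch1. Notch1, which vessels use to select tip cells, had 289.5, 492.8, 507.3 and 801.7, 1.70-fold and 1.58-fold higher in XX/Sry and 1.75-fold and 1.63-fold higher in tubules. Prkca, a protein kinase C, had 153.2, 91.3, 188.1 and 99.2, 1.68-fold and 1.90-fold lower in XX/Sry. Tnip2, which encodes an inhibitor of NF-kappaB signalling that binds Tek, had 244.8, 112.3, 137.9 and 82.9, 2.18-fold and 1.66-fold lower. None of these 3 passed 2-fold in both preparations. Nfatc1, a transcription factor activated by calcium signals from Kdr, had 261.0, 136.3, 48.0 and 47.6, 5.44-fold and at least 2.13-fold lower in tubules, and Pik3r1, a regulatory subunit of phosphoinositide 3-kinase, had 133.5, 218.5, 56.9 and 36.4, 2.35-fold and at least 3.42-fold lower.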

How the data were processed

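The authors deposited MAS5 signals, a linear intensity, from Microarray Suite 5.0 per the labels' design text and the submitters' processing notes; scaling target is not stated there, and detection calls were not used here. The signal mean without the lowest and highest 2% of probe sets was 500.2 on each array, so arrays had been scaled. Of 22690 probe sets, 64 controls were set aside. The platform annotation gave 1 symbol to 20380, several to 691 and none to 1555; 20351 Entrez identifiers matched RefSeq, changing 0 symbols. A gene was represented by its probe set with the highest mean log2 signal. Ratios were taken between single arrays, and a gene was called at 2-fold or more, the same way, in both pairs of a comparison. The additive fit used limma 3.58.1 in R 4.3.3 with a trend and Benjamini-Hochberg adjustment over all 22626 probe sets; it and the calling rule were tested on simulated data. Pair ratios are not replicates.

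The members, gene lists, marker lists and rules were chosen with earlier results of these data known. Named were all members; pathway and hypoxia genes past 2-fold in both pairs where the brighter signal of each pair reached its array's median, the next 4 by the smaller of both ratios with the brighter signal above the bound, and Nrp1, Nrp2, Pgf, Tie1, Hif1a, Epas1 and Vhl; and up to 4 markers of a list by mean signal; and the 3 genes closest to Vegfa of 6197 at or above the median signal. Others that passed the 2-fold rule (Sema3f, Egln3, Emcn, Ushbp1, Car9, Pecam1, Vwf), the HIF partner Arnt and the weakly measured marker Erg were named after their values were seen. So were the oxygen-sensing genes Hif3a and Egln2, the hypoxia genes Adm, Pgk1 and Ero1a, and the mural cell markers Pdgfrb, Cspg4 and Kcnj8. Alternatives were median centring, quantile normalisation, a constant of 50, the mean of all probe sets, signals raised to the background bound, a 1.5-fold threshold, a filter on dim probe sets, the limma fit and, added after seeing the data, scaling on the spike controls.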

Additional observations from a re-analysis of the deposited data

Results flagged for a closer look

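Of the 3 probe sets of Flt1, 2 ran in opposite directions in the 2 preparations, and equally in the 2 genotypes, with a difference of 2-fold or more and the brighter signal of each pair above its background bound. The difference was not tested, since each group has 1 array. For probe set 1419300_at the log2 genotype ratio was -1.92 in whole testis and 3.30 in tubules, a difference of 5.22, and the ratio of tubules over whole testis was -3.54 in W/Wv and 1.67 in XX/Sry, the same difference of 5.22. The signals under these ratios were 104.9, 27.8, 9.0 and 88.7, of which 27.8 and 9.0 were under the bound, so against the bounds the folds are only at least 1.37 and at least 1.45 by genotype. For probe set 1451756_at the genotype ratios were -1.47 and 0.10, a difference of 1.56, and the preparation ratios -0.14 and 1.42, again 1.56, with the XX/Sry whole testis signal of 53.8 under its bound of 63.9. The W/Wv preparation ratio of this probe set turned to 0.08 after median centring and 0.14 after quantile normalisation, so the opposite directions were lost there. The remaining Flt1 probe set, 1454037_a_at, ran the same way in both pairs, with genotype ratios of 0.27 and 0.75 and preparation ratios of -1.13 and -0.65.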

How the results depend on the processing

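No paired analysis was possible because each group has 1 array, so that groups share fewer than 2 replicate numbers; the limma fit compares genotypes within preparations. Member counts: the 2 genes higher in XX/Sry became 1 (Vegfa) after quantile normalisation, with 50 added, and with the mean of all probe sets; the 1 gene higher in tubules became 0, and the 2 lower became 1 (Vegfd), with 50 added and with signals raised to the bound. Pathway genes higher in XX/Sry (2) became 4 after quantile normalisation, 5 at 1.5-fold, 0 in the limma fit, and 1 (Plxnd1) with 50 added, the probe set mean, signals at the bound and the brightness filter; those lower (0) became 1 with the probe set mean and 2 at 1.5-fold. Pathway genes higher in tubules (2) became 4 after median centring, 7 at 1.5-fold, 0 with 50 added, and 1 with signals at the bound, the brightness filter and the limma fit (Egln1); those lower (6) became 2 (Apln and Serpinf1) with 50 added, the probe set mean and the limma fit, and 3 with the brightness filter. Vegfd in tubules, XX/Sry over W/Wv, dropped from 1.02 to 0.94 (quantile), 0.79 (50 added) and 0.83 (probe set mean), and in whole testis from 1.11 to 0.93 (probe set mean); Vegfa in XX/Sry, tubules over whole testis, went from 0.29 to 1.05 with the probe set mean. With signals raised to the bound, Angpt1 reversed between preparations (2.76 to -0.73 in W/Wv, 1.68 to -0.07 in XX/Sry) and Angpt2 by genotype in tubules (-1.77 to 0.40); these signals were under the bound. Scaling on the spike controls moved the median of all genes to 0.62 in tubules by genotype and to -0.70 in W/Wv by preparation, and changed no count of members by over 1.5 times. Causes were otherwise not tested. Of the 16 member probe sets, 8 (both of Vegfa among them) had signals under the bound on some arrays and 1 on all.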

Other observations

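Lists of cells outside the vessels were also measured, as a description of what each array held. Of the 10 germ cell markers, 9 were above the bound in W/Wv whole testis and 5 or 6 elsewhere; Prm1, a protamine of spermatids, had 1546.1 there against 23.8 to 155.5 on the other arrays. The 7 markers of mast cells, which need Kit, summed, with whole testis first and W/Wv before XX/Sry, to 1475, 1327, 1763 and 1638. On an array 2 to 4 of them were above the bound. Hdc, also found in other cells, had 1161.6, 982.2, 1552.5 and 1359.6 of these sums. The genotype rule called 1 of the 7 higher, Cma1, and 0 lower, beside 1.98% and 3.22% of all genes. Cma1 had 30.9, 81.4, 24.9 and 111.8, under the bound on both W/Wv arrays, at least 1.07-fold and at least 1.83-fold higher in XX/Sry. Cpa3 was 1.31-fold and 1.43-fold higher. In each preparation 3 of the 7 had the higher signal in XX/Sry. The 10 Sertoli cell markers summed to 43800, 48410, 71030 and 57950, 1.62-fold and 1.20-fold higher in tubules.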
